A study of Mus musculus with 6 samples.

Results

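Splenic B cell cultures can carry over other blood cells from the spleen, and 47 marker genes of non-B lineages were read in them, of 41669 gene symbols in the deposited table. The markers were named as a list by lineage, with earlier results of these data known. They were 16 of macrophages and monocytes, 10 of T cells, 6 of natural killer cells, and 5 each of neutrophils, dendritic cells and erythroid cells. All 47 had a row, 46 under their own symbol and Adgre1 under its older symbol Emr1. The 6 libraries came from NZB/W F1 mice, hybrids in which autoimmunity resembling lupus arises, taken at the late stage of disease. All mice were at that stage and all cultures received CpG, DNA that activates Toll-like receptor 9, so the labels separate the groups by sex alone: 3 females and 3 males, each a separate mouse, of an age not given in the sources used here. B cells had been held back on a positive-selection column and then kept with CpG for 24 h before RNA was taken. The surface molecule used for the selection is not given in the sources used here.

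Each lineage has genes that few other blood cells use. Macrophages are known for lysozyme, the F4/80 receptor (Adgre1) and the C1q subunits, and those of the splenic red pulp, which clear old red cells and recycle their iron, also need the transcription factor Spic. T cells assemble their antigen receptor with the CD3 chains, natural killer cells and killer T cells store granzymes and perforin, neutrophils hold large amounts of S100a8 and S100a9, and red cells are filled with globin. Some of the listed genes are less strict: Flt3 is used by early progenitors as well as dendritic cells, and Lck and Cd68 are found at low level in several other cell types.

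Levels are CPM, the deposited estimated counts scaled by the total of their column, and a gene is called detected in a library at 3 or more estimated counts. The column totals ran from 24089561 to 35659883, which puts this floor at 0.0841 to 0.125 CPM. B lineage genes fixed as a reference were present in every library. Ms4a1, which encodes the B cell surface protein CD20, lay between 1424 and 1658 CPM, and the B cell transcription factor gene Pax5 between 497 and 591 CPM. The 10 reference genes together took 2282 to 2533 CPM per library, while the 47 non-B markers together took 30.6 to 49.2 CPM, or 0.00306 to 0.00492% of a library.

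Levels differed with base composition over all genes. When the 12172 genes that passed the low-count filter of the sex comparison were cut into 5 equal groups by the GC content of their longest transcript, the median level fell from group to group: it was 46.6 CPM in the group of lowest GC (28.1 to 42.9%), then 30.6, 17.0 and 8.28 CPM, and 2.51 CPM in the group of highest GC (53.7 to 68.2%). B cell genes at the ends of this range also differed. Per kilobase of transcript, Ms4a1 (40.6% GC) had 504 CPM, while Cd74, the invariant chain gene of MHC class II that B cells normally make in large amounts (56.6% GC), had 8.53, and the tetraspanin gene Cd37 (57.3% GC) had 0.675. The reference genes Cd79b (54.2% GC) and Cd79a (54.9% GC), also in the group of highest GC, had 23.6 and 11.6. Of the 47 markers, 13 fell in the group of highest GC, where 1 (Lck) was detected in all 6 libraries and 6 in none. From the lowest group to the next highest, the groups held 5, 13, 5 and 11 markers, of which 3, 5, 5 and 3 were detected in all 6 libraries and 0, 5, 0 and 5 in none. The share of markers detected in none thus did not rise steadily with GC. Female replicate 3 had the lowest median in the group of highest GC, 0.972 CPM against 2.27 to 3.60 in the other 5 libraries. The part of GC content in the level of any single marker was not tested.

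**Figure D1:**
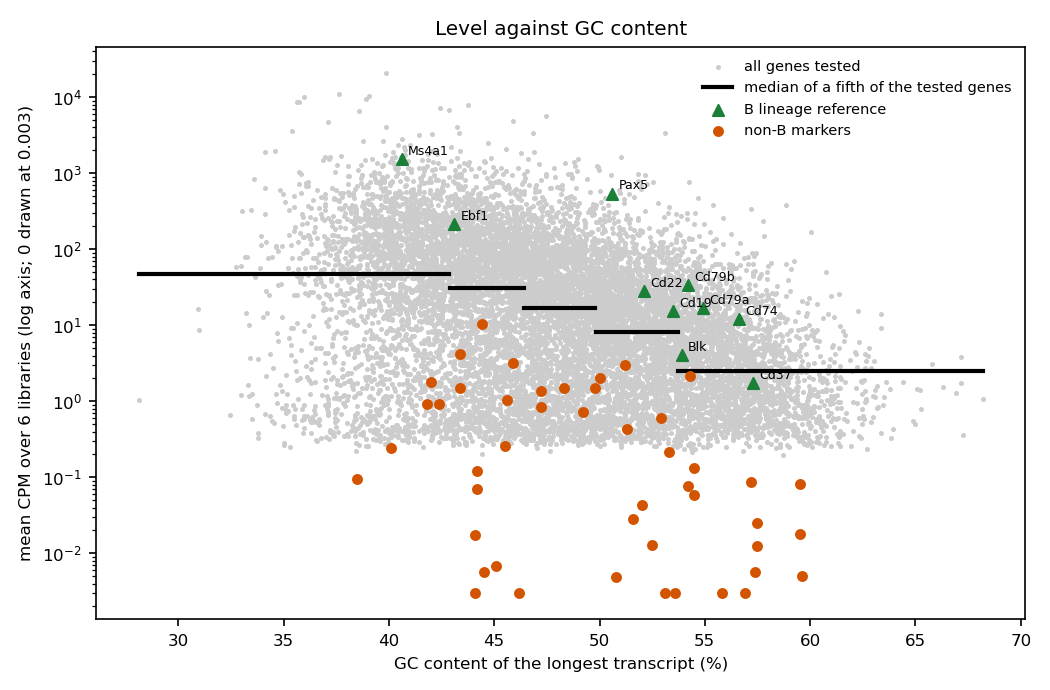
Mean CPM over the 6 libraries (log axis) against the GC content of the longest transcript in percent, for all genes tested (grey), 10 B lineage reference genes (green triangles) and the 47 non-B markers (orange); black bars are the medians of 5 equal GC groups. The medians step down from 46.6 to 2.51 CPM, and Cd74 and Cd37 lie far below Ms4a1.

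Of the 47 markers, 17 were detected in all 6 libraries, 14 in 1 to 5 libraries and 16 in none. Thy1, Ncr1, Gzmb, Prf1, Nkg7 and Hba-a2 had an estimated count of 0 in every library. The number detected was 24, 26 and 21 in female replicates 1 to 3 and 20, 21 and 20 in male replicates 1 to 3, so female replicate 2 held the most. By mean level, 12 markers reached 1 CPM: 3 of macrophages (Lyz2, Adgre1, Mrc1), 3 of T cells (Cd3d, Cd247, Lck), 1 of natural killer cells (Klrb1c), 2 of neutrophils (Cxcr2, Mmp8) and 3 of dendritic cells (Flt3, Zbtb46, Xcr1).

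**Figure D2:**
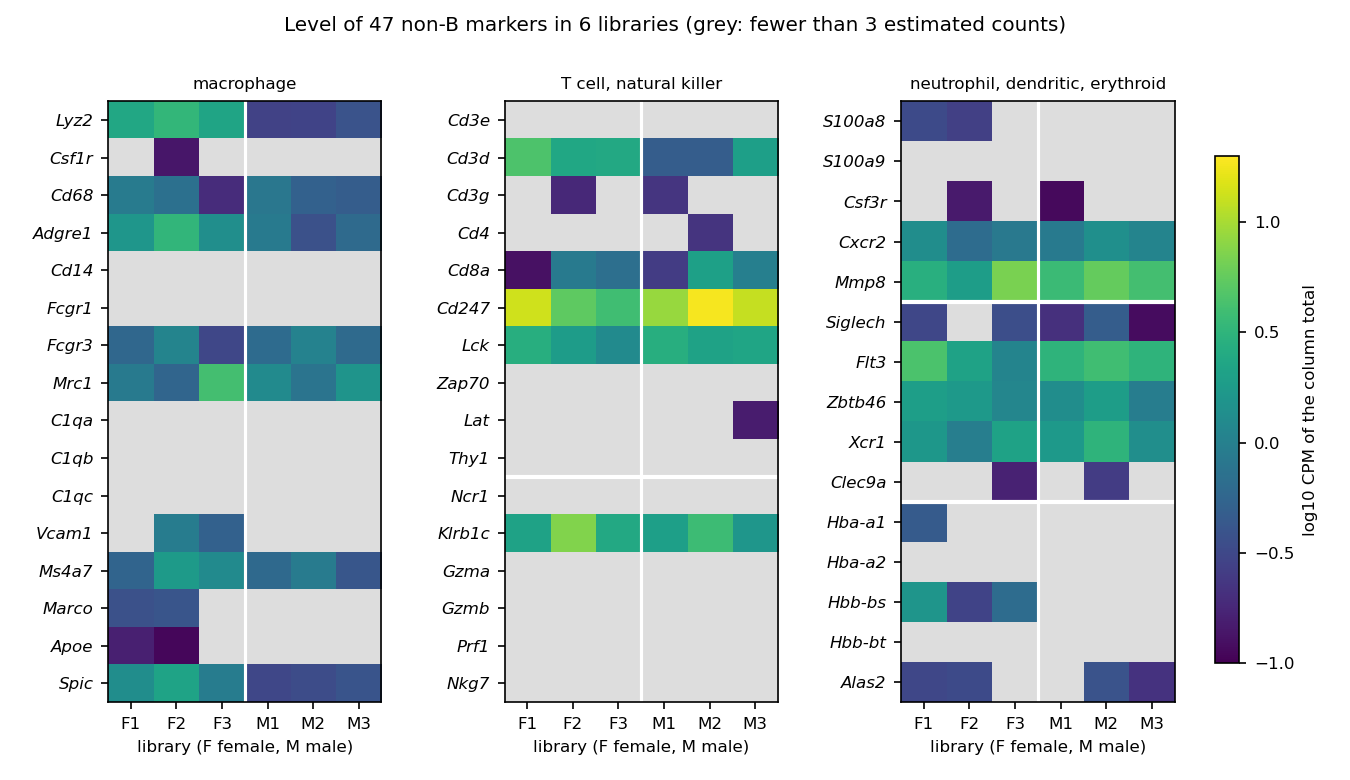
Level of each of the 47 markers (rows, by lineage) in the 6 libraries (columns, females F1 to F3 and males M1 to M3) as log10 CPM of the column total; grey cells hold fewer than 3 estimated counts. Most rows are either grey nearly throughout or filled in all 6 libraries, and Lyz2, Adgre1 and Spic are brighter in the females.

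Females were compared with males in 1 fit over all 12172 genes tested, with edgeR's quasi-likelihood test and Benjamini-Hochberg adjustment. Of the 47 markers, 17 passed the low-count filter and 30 did not, so the test covers the former alone. The filter asked for a level near 0.328 CPM in 3 libraries; Lyz2 reached it in 3 females and 1 male and Spic in 3 females and 2 males, so both passed mainly through the females, where they were high, and the counts over tested markers are given as description. It called 0 markers higher and 0 lower in females, against 0.0246% and 0.0329% of all genes tested. At an unadjusted p under 0.05 there were 4 markers higher and 0 lower (1.66% and 1.23% of all genes). The same 4, Lyz2, Spic, Adgre1 and Cd3d, had all females above all males, which 2.69% of all genes tested had; the opposite order was seen in 0 tested markers and 7.55% of all genes. Among the untested markers, Marco and Hbb-bs also had all females above all males, and none had the opposite order. The share of untested genes in the whole table with either order was not computed, so this is description only. DESeq2 called 2 markers higher, Lyz2 and Spic, against 0.197% of all genes (0 lower, against 0.0904%), and limma-voom called 0 (0.0246% and 0.0493% of all genes). The median log2 fold change (female over male) of the 17 was 0.06, with 10 positive, beside 0.00 with 6099 of 12172 positive over all genes. These are bulk samples, so more cells of a type and more RNA per cell cannot be told apart.

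Of the 4 tested markers with all females above all males, 3 were from the macrophage list. Lyz2, the lysozyme gene of myeloid cells (GRCm38 chromosome 10: 117277331 to 117282321), had 2.39, 3.32 and 2.20 CPM in female replicates 1 to 3 and 0.282, 0.290 and 0.390 CPM in male replicates 1 to 3. These rest on 57.7, 97.6 and 78.6 estimated counts in the females and 8.89, 7.95 and 13.0 in the males. Every female library lay far above every male one, and the 2 ranges did not overlap. The log2 fold change of Lyz2 was 3.15 ± 0.40 (SE; edgeR adjusted p = 0.0837). DESeq2 gave an adjusted p of 6.4e-08, the lowest of 11 alternatives, whose adjusted p reached 0.740, and it alone passed the threshold.

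Lyz2 has a close copy, Lyz1, whose coding sequence of 447 bases differs at 22 positions, and 32.8% of the stretches of 31 bases in the Lyz2 transcript also occur in Lyz1. The copy held 2.22 estimated counts over all 6 libraries, so nearly all counts of the pair were given to Lyz2. The stretch of 150 coding bases that holds the most differences (15), from base 7 to base 156 of the coding sequence counted from the A of the start codon, is shown because it is what separates the copies; capitals mark the bases that differ, and both are from GENCODE M21 transcripts.
Lyz2: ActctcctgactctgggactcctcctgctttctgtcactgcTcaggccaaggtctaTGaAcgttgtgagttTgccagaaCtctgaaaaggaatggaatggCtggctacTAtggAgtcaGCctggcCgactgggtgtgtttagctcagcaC
Lyz1: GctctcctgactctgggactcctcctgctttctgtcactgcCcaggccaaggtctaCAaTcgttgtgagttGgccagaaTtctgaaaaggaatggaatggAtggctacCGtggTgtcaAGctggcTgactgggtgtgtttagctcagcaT

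Spic, a transcription factor gene that red pulp macrophages need (chromosome 10: 88674772 to 88685015), had 1.34, 2.16 and 0.929 CPM in female replicates 1 to 3 and 0.307, 0.343 and 0.400 CPM in male replicates 1 to 3. The males lay close together and below all females. Its log2 fold change was 2.19 ± 0.45 (edgeR adjusted p = 0.797; 0.0459 with DESeq2 and up to 1.00 in the other alternatives). Adgre1, the F4/80 gene (chromosome 17: 57358691 to 57483527), had 1.61, 3.25 and 1.36 CPM in females and 0.888, 0.374 and 0.630 in males. The ranges were again apart, with a smaller gap, and the log2 fold change was 1.84 ± 0.51 (edgeR adjusted p = 0.999; 0.244 with DESeq2 and up to 1.00 in the other alternatives). Female replicate 2 was the highest library for all 3 of these genes.

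Vcam1, an adhesion molecule gene that red pulp macrophages share with stroma, had 0, 0.929 and 0.520 CPM in the females and 0 estimated counts in all 3 males. Against a floor of 3 counts over the male group, the females together were at least 15.8-fold higher; the bound fell to 9.53 without female replicate 2, and was 10.4 and 10.1 without male replicates 1 and 3. Marco, a scavenger receptor gene of marginal zone macrophages, had 0.371, 0.407 and 0.0283 CPM in females and again 0 in all males, at least 7.55-fold higher on the same floor (12.0 without female replicate 3, 4.97 and 4.83 without male replicates 1 and 3). Female replicate 1 had no Vcam1 and female replicate 3 had 1.01 counts of Marco, so neither gene was detected in all females. Both fell under the low-count filter and have no test in the fit that used it. The edgeR fit without that filter called 0 markers higher in females.

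Other macrophage genes did not separate the sexes. Mrc1, the mannose receptor gene, was highest in female replicate 3, at 4.06 CPM, and lay between 0.567 and 1.54 CPM in the other 5 libraries. Ms4a7 ran from 0.411 to 1.79 CPM (log2 fold change 1.07 ± 0.58, edgeR adjusted p = 0.999), Cd68 from 0.197 to 0.906 CPM and the Fc receptor gene Fcgr3 from 0.307 to 1.09 CPM, each with overlapping groups. Fcgr3 shares 13.4% of its stretches of 31 bases with Fcgr2b, the inhibitory Fc receptor gene that B cells express, so its counts may be split between the genes.

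Several genes that define macrophages were at or near 0. C1qa, C1qb and C1qc, which encode the chains of complement C1q, were under 3 counts in every library and at 0 in every male library, and Cd14 and Fcgr1 stayed under 3 counts in every library. Csf1r, the receptor gene for the growth factor M-CSF, was detected in female replicate 2 alone, with 4.04 counts (0.137 CPM). Apoe was detected in female replicates 1 and 2, with 3.87 and 3.20 counts. C1qa, C1qb, C1qc, Csf1r, Apoe and Marco are all in the group of highest GC. The B lineage reference genes in that group averaged 33.7 CPM (Cd79b), 17.0 (Cd79a), 12.0 (Cd74), 4.02 (Blk) and 1.72 (Cd37). Lyz2 (48.3% GC) and Adgre1 (47.2%) are in the middle group and Spic (41.8%) and Vcam1 (40.1%) in the lowest. Whether GC content had a part in these levels was not tested.

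In a wider list of 16 macrophage genes, 8 passed the low-count filter, 6 of them with a positive log2 fold change (median 0.51), and edgeR called 0. Mpeg1, which encodes the pore-forming protein perforin-2, was the most abundant, at 40.4 to 137 CPM with overlapping groups. Hmox1, which encodes the enzyme haem oxygenase that breaks down haem, came next, at 0.871 to 3.89 CPM, also with overlap (log2 fold change 1.09 ± 0.48, edgeR adjusted p = 0.999). Itgam, the gene of the integrin chain CD11b, ran from 0.701 to 2.93 CPM with overlap. Itgam, Msr1, Slc40a1, Mertk, Cd163, Timd4, Siglec1, Ccr2, Cx3cr1 and Ly6c2 are named after their values were seen. The last 4 were lower in females, with overlap. Siglec1 and Ccr2 had log2 fold changes of -0.34 ± 0.82 and -0.24 ± 0.52 (edgeR adjusted p = 0.999 for each). Cx3cr1 had 16.7 female and 47.5 male counts and Ly6c2 19.4 and 28.3, both under the low-count filter and so without a test in that fit. Msr1, a scavenger receptor gene, had 0.860, 1.73 and 1.02 CPM in females and 0.0601, 0.202 and 0.0852 CPM in males, with no overlap (log2 fold change 3.40 ± 0.62, edgeR adjusted p = 0.450; 0.0066 with DESeq2 and up to 1.00 in the other alternatives). Msr1 passed the low-count filter through the females alone, with 3 females and 0 males at the level asked for, so its fold and p are descriptions of a gene that had to differ. Slc40a1, the iron exporter gene ferroportin, had 0.256, 2.03 and 0.578 CPM in females and 0.0639, 0 and 0.0302 CPM in males. Its 86.4 female counts stood against 3.02 male counts, a ratio of 29.6 (95% counting interval 9.81 to 147). The ratio was 13.9 without female replicate 2, which held 59.6 of those counts, and 58.5 without male replicate 1. Mertk, a receptor gene for the uptake of dead cells, had 23.4 female and 1.27 male counts. Slc40a1 and Mertk did not pass the low-count filter and so were not tested in the fit that used it. The counting interval covers counting error only, not the spread between mice. In the same list Cd163 was at 0 in all libraries, and Timd4, at 0.619 to 0.915 CPM in females and 0.540 to 0.617 in males, differed little (log2 fold change 0.50 ± 0.41, edgeR adjusted p = 0.999).

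**Figure D3:**
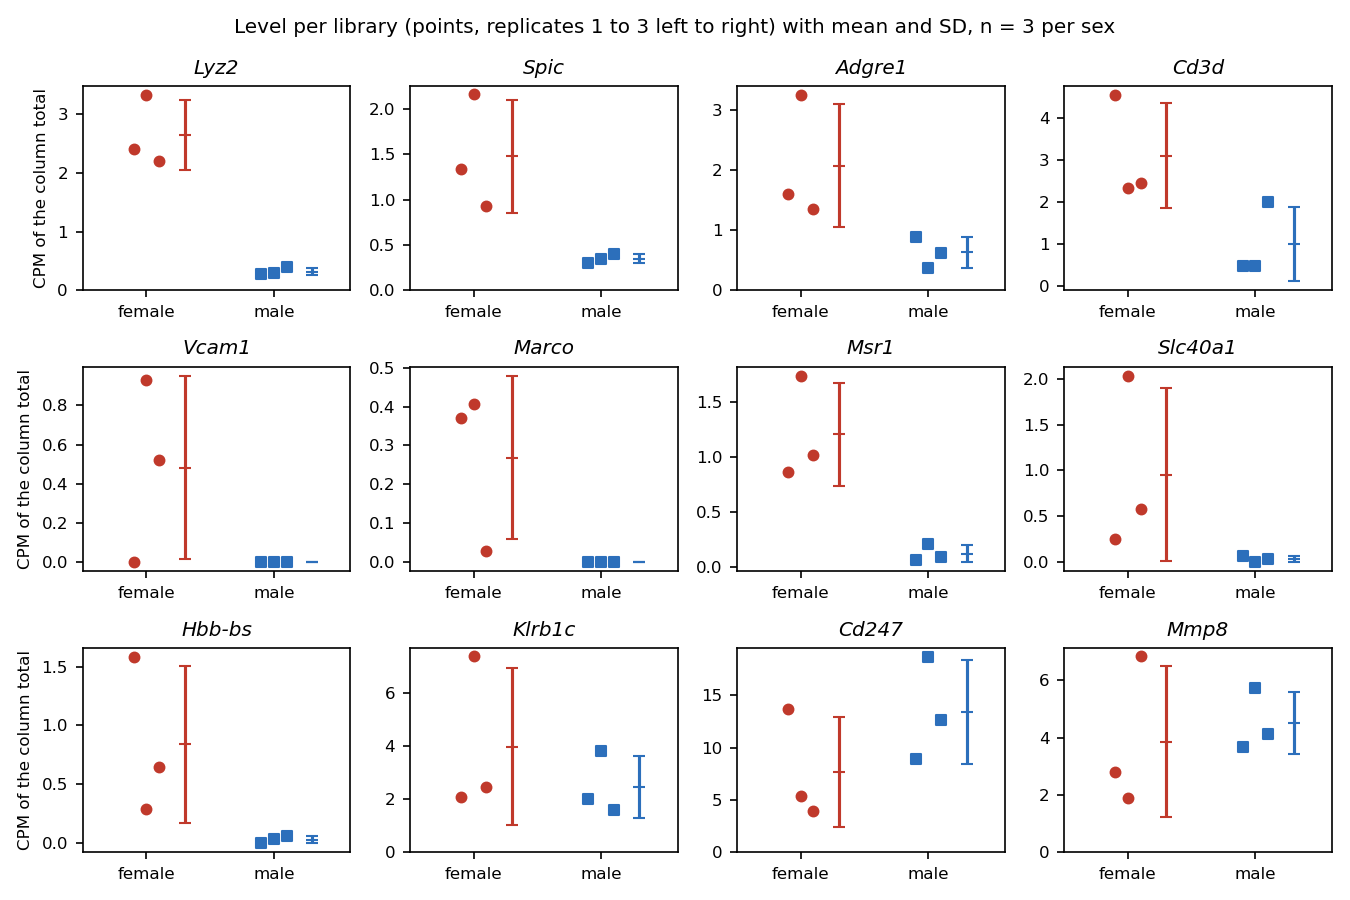
CPM of the column total per library for 12 genes, with females as red circles and males as blue squares (replicates 1 to 3 from left to right); the bar beside them is the mean with its SD, n = 3 per sex. Lyz2, Spic, Adgre1 and Msr1 have every female above every male, while Klrb1c, Cd247 and Mmp8 overlap.

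T cell genes split into a few that were present everywhere and many that were nearly absent. The 3 CD3 genes lie side by side on chromosome 9, between 44969572 and 45009627, yet their levels were unlike. Cd3d had 4.54, 2.32 and 2.44 CPM in females and 0.477, 0.476 and 2.00 CPM in males. Male replicate 3 came near the females while the other 2 males were low, and the ranges did not overlap. The log2 fold change of Cd3d was 1.75 ± 0.64 (edgeR adjusted p = 0.999) and 2.81 without male replicate 3. Cd3e held 0.997 counts in female replicate 2 and 0 in the other 5 libraries. Cd3g was detected in 2 libraries, female replicate 2 (5.36 counts) and male replicate 1 (7.11 counts).

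The most abundant T cell marker was Cd247, the CD3 zeta chain gene (chromosome 1: 165788681 to 165877277). It had 13.6, 5.34 and 3.95 CPM in females and 8.90, 18.7 and 12.6 CPM in males, so male replicate 2 was highest and the sexes overlapped (log2 fold change -0.74 ± 0.45, edgeR adjusted p = 0.999). Exons of Cd247 overlap those of Pou2f1, on the other strand, over 3007 bases, and Pou2f1 averaged 251 CPM in these libraries. Whether the counting used strand is not known from the labels, so reads of this overlap may belong to either gene. Lck, a Src family kinase gene, ran from 1.26 to 2.79 CPM, and Cd8a from 0.127 to 2.04 CPM, both with overlap.

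The remaining T cell markers were at or near 0. Thy1 was at 0 in all libraries, Zap70 had 0.997 counts in male replicate 3, and Lat had 4.98 counts there and 0 elsewhere. Cd4 was detected in male replicate 2 alone, with 6.06 counts. Constant region genes of the T cell receptor, from a wider T cell list and named after their values were seen, as Cd5 and Cd6 were, had similarly low counts: Trac, Trbc1 and Trbc2 held fewer than 2 counts in each library, Cd6 held 0.997 in all and Cd5 0. Of these, Cd3e (44.5% GC), Trac, Trbc1 and Trbc2 are outside the group of highest GC, where Thy1, Zap70 and Lat lie.

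Natural killer markers came down to 1 gene. Klrb1c, which encodes the NK1.1 receptor chain (chromosome 6: 128778485 to 128789215), had 2.10, 7.39 and 2.46 CPM in females and 2.00, 3.81 and 1.61 CPM in males. Female replicate 2 was the highest and male replicate 2 the next, the groups overlapped, and the log2 fold change was 0.82 ± 0.57 (edgeR adjusted p = 0.999). Ncr1, the NKp46 gene, and the cytotoxic granule genes Gzmb, Prf1 and Nkg7 were at 0 in all 6 libraries, and Gzma held 1.99 counts in female replicate 2 and 0.994 in male replicate 2. A count of 0 allows up to 0.0841 to 0.125 CPM, depending on the library. Ncr1, Gzma and Gzmb have 44.1 to 46.2% GC, and Klrb1c has 45.9%. In GENCODE M21, Klrb1c shares 413 exon bases with Gm44511, on the same strand, and 5.8% of its stretches of 31 bases with its relative Klrb1b.

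Neutrophil markers showed the same split. Mmp8, a collagenase gene stored in neutrophil granules, had 2.81, 1.90 and 6.84 CPM in females and 3.68, 5.73 and 4.11 in males, and Cxcr2, a chemokine receptor gene, ran from 0.654 to 1.38 CPM. Both overlapped between the sexes, with log2 fold changes of 0.01 ± 0.56 and -0.13 ± 0.43 (edgeR adjusted p = 1.00 and 0.999). The genes that neutrophils express most strongly were scarce: S100a8 had 7.95 and 7.98 counts in female replicates 1 and 2, 0 in female replicate 3 and male replicate 1, and 1.99 in male replicates 2 and 3, while S100a9 had 0.994 in female replicate 1 and 0 elsewhere. Csf3r, the receptor gene for the growth factor G-CSF, reached 4.27 counts at most. S100a8 (44.2% GC) and S100a9 (45.1%) have base compositions near that of Mmp8 (43.4%).

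Of 5 dendritic cell markers, 3 were detected in all libraries. Flt3, a cytokine receptor gene, had 4.47, 2.12 and 1.09 CPM in females and 3.11, 3.95 and 3.11 in males. Xcr1, the chemokine receptor gene of cross-presenting dendritic cells, ran from 0.966 to 3.11 CPM, and Zbtb46, a transcription factor gene of conventional dendritic cells, from 0.948 to 1.96 CPM. None of the 3 separated the sexes (log2 fold changes of -0.34 ± 0.45, -0.20 ± 0.50 and 0.31 ± 0.40, edgeR adjusted p = 0.999 for each). Siglech, a receptor gene of plasmacytoid dendritic cells, was detected in 5 libraries but did not exceed 0.475 CPM. Clec9a, which marks the same dendritic cells as Xcr1, was detected in female replicate 3 (5.95 counts) and male replicate 2 (7.08 counts) and was at 0 in the other 4 libraries.

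Erythroid markers were low, and beta globin was found in females alone above the floor. Hbb-bs (chromosome 7: 103826534 to 103828096) had 38.0, 8.50 and 23.1 counts in female replicates 1 to 3, or 1.58, 0.289 and 0.648 CPM. The males had 0, 0.951 and 1.91 counts. Over the groups that is 69.6 against 2.86 counts, a ratio of 24.1 (95% counting interval 7.92 to 120). It was 15.1 without female replicate 1, 15.9 without male replicate 1 and 46.3 without male replicate 3. Hbb-bs did not pass the low-count filter, so the fit over 12172 genes has no test of it. The edgeR fit without that filter called 0 markers higher and 0 lower in females. Hba-a1, an alpha globin gene, had 10.9 counts in female replicate 1, 1.99 in female replicate 2 and 0 elsewhere, so it was above the floor in 1 library. Alas2, which encodes the red cell enzyme that starts haem synthesis, did not follow the globins: it was at 0.307, 0.327 and 0.0158 CPM in females and 0.0178, 0.387 and 0.219 in males. Its exons overlap 311 bases of Apex2 on the other strand, a gene at 8.86 CPM on average.

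Each globin gene of the list has a copy that is nearly the same. The coding sequences of Hba-a1 and Hba-a2 (429 bases) differ by 1 base, C381T, and those of Hbb-bs and Hbb-bt (444 bases) by 1 base, C417T, with positions counted from the A of the start codon. Of the stretches of 31 bases, 75.4% of those in Hba-a1 occur in Hba-a2 and 54.4% of those in Hbb-bs occur in Hbb-bt. Hba-a2 was at 0 and Hbb-bt at 1.04 counts in female replicate 3 and 0 elsewhere, so the split within each pair is uncertain and only the pair can be read. The 60 coding bases around each difference show how little separates them, with the base that differs in capitals.
Hba-a1: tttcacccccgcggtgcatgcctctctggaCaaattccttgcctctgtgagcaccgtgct
Hba-a2: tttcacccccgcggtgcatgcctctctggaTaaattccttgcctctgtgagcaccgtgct
Hbb-bs: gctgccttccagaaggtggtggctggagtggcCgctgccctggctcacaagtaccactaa
Hbb-bt: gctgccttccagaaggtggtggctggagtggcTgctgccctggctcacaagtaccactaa

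Summed over a list, the macrophage markers stood at 9.02, 14.7 and 10.9 CPM in female replicates 1 to 3 and 4.89, 4.41 and 4.67 CPM in male replicates 1 to 3 (11.5 ± 2.90 and 4.66 ± 0.243, SD, n = 3). All females lay above all males, at a ratio of means of 2.48. Over the 6 genes set as defining (Lyz2, Csf1r, Adgre1, C1qa, C1qb and C1qc), the sums were 4.18, 6.84 and 3.56 CPM against 1.21, 0.665 and 1.10 CPM, a ratio of 4.91. Nearly all of these sums was Lyz2 and Adgre1, already named for having all females above all males. The ratio thus largely repeats the values of those genes. The erythroid sum was 2.34, 0.684 and 0.693 CPM in females and 0.0178, 0.422 and 0.276 in males (ratio 5.19), and it depended on single libraries: the ratio was 2.88 without female replicate 1 and 8.42 without male replicate 2. Sums over members are given without a test.

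Over all members, the other 4 lists overlapped between the sexes. The T cell sum was 13.4 ± 6.75 CPM in females and 18.1 ± 5.47 in males, of which Cd247 alone made up 46.8 to 79.2% in each library. Over the CD3 genes Cd3e, Cd3d and Cd3g, the order turned and the sexes did not overlap, with 2.52 to 4.54 CPM in females (3.20 ± 1.16) and 0.509 to 2.05 in males (1.09 ± 0.841), nearly all of it Cd3d. The natural killer sum was 4.01 ± 2.99 and 2.49 ± 1.20 CPM, and Klrb1c made up 99.1 to 100% of it in each library. Its ratio of 1.61 became 0.917 without female replicate 2. The neutrophil sums were 5.08 ± 2.40 and 5.75 ± 1.32 CPM, with Mmp8 at 61.2 to 89.0%, and the dendritic sums 6.05 ± 2.02 and 7.20 ± 2.21 CPM.

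**Figure D4:**
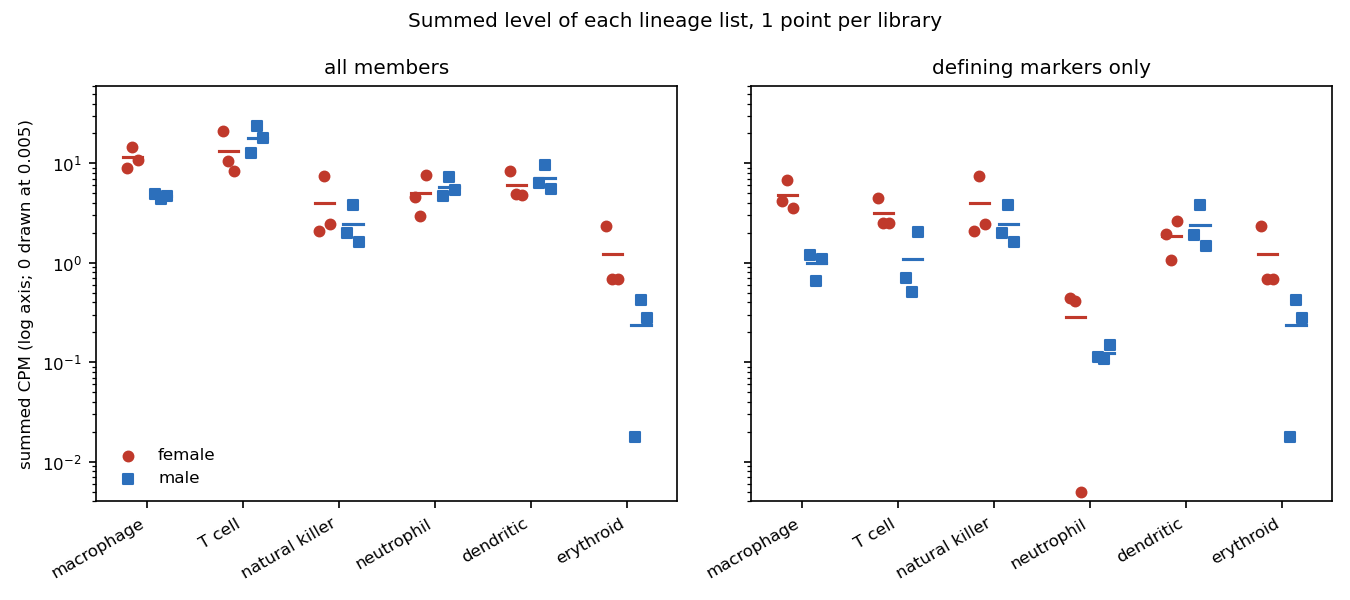
Summed CPM (log axis) of each lineage list, 1 point per library (females red circles, males blue squares, replicates 1 to 3 from left to right, bars are means), over all members (left) and over the defining markers (right). The macrophage and erythroid points of the females lie above those of the males in both panels, as do the T cell points in the right panel, and the neutrophil point at the foot of the right panel is female replicate 3, whose sum was 0.

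Read per library, the marker levels were low and differed in kind; which cells the counts came from was not tested. Female replicate 2 held the largest macrophage sum, with the highest levels of Lyz2, Adgre1, Spic, Vcam1, Marco, Msr1, Slc40a1 and Mertk, and it also had the most Klrb1c. Female replicate 1 held the most globin and Cd3d and, with female replicate 2, the S100a8 counts above the floor. Female replicate 3 had Lyz2, Spic and Hbb-bs at levels above all males, no S100a8, and the most Mrc1 and Mmp8. The 3 males had low Lyz2, Spic and Msr1 and under 3 counts of Hbb-bs, while male replicate 2 had the highest Cd247, Cd8a, Xcr1 and Alas2. Set against B cell genes in the same library, the median level per kilobase of the macrophage list was 0.0995 to 2.45% of the median of the B lineage reference. The corresponding range was 0 to 0.625% for the T cell list, 0 for the natural killer list, 0 to 3.04% for the neutrophil list, 1.62 to 7.39% for the dendritic list and 0 to 1.37% for the erythroid list. The reference median itself ran from 2.89 CPM per kilobase in female replicate 3 to 20.1 in female replicate 1, so percentages in female replicate 3 are raised by its low reference. It was also below that of female replicate 1 in female replicate 2 (7.06) and male replicate 2 (7.36). Of the 10 reference genes, 3 are in the second highest GC group and 5 in the highest, where median levels were low in all 6 libraries. These are ratios of RNA levels between genes and not shares of cells.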

How the data were processed

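RNA of 6 cultures, each from 1 mouse, was sequenced. The authors deposited estimated counts for 41669 gene symbols, not scaled to a common depth. Per the submitters' processing notes, kallisto, DESeq2 and the build GRCm38.p6 were used; the sources used here give neither versions nor settings. For each library, CPM was computed from the column total. Intervals and floors (3 counts; 95% exact) cover counting error only.

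Estimated counts were rounded and tested in R 4.3.3 with edgeR 4.0.16. Low genes were removed by filterByExpr on the sexes, libraries were scaled by TMM, and glmQLFit and glmQLFTest were run on sex, adjusting by Benjamini-Hochberg across 12172 genes (FDR 0.05). The standard error is the log2 fold change divided by the square root of F. DESeq2 1.42.0, limma-voom (limma 3.58.1), library totals, no low-count filter, a replicate block and leaving out each library were alternatives. On simulated counts for these 12172 genes, the test recovered 9.0%, 85.1% and 100% of genes changed 2-, 4- and 16-fold in the female against male comparison, with 7 of 136 calls false. The simulation gave every gene the same spread between libraries (biological coefficient of variation 0.351). Its percentages average over genes of all levels, so they do not tell what is recovered among markers of few counts or larger spread.

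Length, GC content (98.8% of tested genes), positions and sequences are from GENCODE M21 (GRCm38); Emr1 was matched to Adgre1 through RefSeq synonyms. Fold changes and tests were printed by rule for tested members whose sexes do not overlap; those of further tested members were added as description. Of each wider list, up to 2 genes of highest mean CPM were named, and others are said to be chosen after their values were seen. The groups hold separate mice, so the spread is that between animals. Members and lists were chosen with earlier results of these data known. Figures were drawn with matplotlib 3.10.9.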

Additional observations from a re-analysis of the deposited data

How the results depend on the processing

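Of the 47 markers, DESeq2 called 2 higher in females where edgeR called 0; limma-voom, scaling by library totals, testing without a low-count filter, the replicate block and each fit without 1 library called 0 in either direction. The log2 fold changes of Lyz2, Spic, Adgre1, Cd3d and Msr1 were positive in all 11 alternatives. These genes were singled out because all females lay above all males. Leaving out 1 library or refitting the same libraries could hardly turn their sign, so the sign is description only. For Lyz2 the log2 fold changes ran from 3.00 to 3.32, with adjusted p from 6.4e-08 to 0.740. The ratio of summed levels moved by more than the spread between libraries where defining markers alone were used: to 4.91 from 2.48 for macrophages, to 2.94 from 0.740 for T cells and to 2.32 from 0.883 for neutrophils, the last on few counts. Leaving out 1 library gave ratios of 2.13 to 2.74 for macrophages, 0.528 to 0.877 for T cells, 0.917 to 2.22 for natural killer cells, 0.657 to 1.07 for neutrophils, 0.678 to 1.02 for dendritic cells and 2.88 to 8.42 for erythroid cells. With TMM factors the macrophage and erythroid ratios were 2.75 and 5.45, and the neutrophil ratio turned from 0.883 to 1.02.

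The labels number the mice and name no pairing. Correlations of deviations between same-numbered females and males were 0.222, 0.042 and 0.069, and those of differently numbered mice ran from -0.207 to 0.120. Female replicates 1 and 2 correlated best with the male of the same number, and female replicate 3 with male replicate 2 (0.120). Whether the numbers mark a shared batch was not tested. With the replicate block, 0 markers were called and Lyz2 had a log2 fold change of 3.14 (adjusted p = 0.359). Detection was limited by depth for markers under about 0.1 CPM. Ratios of pooled counts of genes with few male counts, computed without each library in turn, were added after seeing the data. With a floor of 10 counts, 14 to 19 markers were detected per library in place of 20 to 26.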

Other observations

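Lists of further cell types were read in the same libraries. Of 6 platelet genes, Itgb3, an integrin gene that is not limited to platelets, lay at 2.61 to 5.68 CPM, and the others did not exceed 4.45 counts in a library. Of 5 mast cell and basophil genes, Ms4a2 (0.289 to 1.49 CPM) and Hdc (0.0798 to 0.935 CPM) were the highest, while Mcpt8 and Fcer1a were at 0 in all libraries. Pecam1, an adhesion gene that endothelium shares with blood cells, lay between 15.4 and 41.7 CPM, and the collagen gene Col1a1 between 0.271 and 0.804 CPM. The 10 further neutrophil genes were led by Mpo, at 0.0600 to 0.145 CPM, and 9 of them were detected in no library.

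In the wider T cell list the most abundant genes were Il7r, a cytokine receptor gene, at 6.87 to 21.8 CPM, and Cd2, an adhesion gene, at 1.84 to 7.11 CPM, both with overlap between the sexes. In the wider dendritic list they were Irf8, at 93.8 to 147 CPM, and Ccr7, at 4.10 to 19.0 CPM, both of which B cells also express. Ccr9, a chemokine receptor gene named after its values were seen, had 2.68, 7.14 and 2.76 CPM in female replicates 1 to 3 and 1.61, 2.06 and 0.829 CPM in male replicates 1 to 3 (log2 fold change 1.61 ± 0.52, edgeR adjusted p = 0.999). Like Lyz2, Spic and Adgre1 of the macrophage list, it had all females above all males and its highest level in female replicate 2. In the wider natural killer list Tbx21 (0.311 to 1.63 CPM) and Klrk1 (0.0176 to 0.369 CPM) led. In the wider erythroid list the transferrin receptor gene Tfrc, which dividing cells of many types express, lay between 1656 and 1862 CPM and Hemgn between 3.08 and 11.8 CPM, whereas the red cell membrane gene Slc4a1 and the erythroid factor genes Klf1 and Gata1 were detected in no library. These 3 are named after their values were seen, as are Mcpt8 and Fcer1a. Over these lists and the wider macrophage list, edgeR called 0 genes in either direction (0.0246% higher and 0.0329% lower over all genes tested). At an unadjusted edgeR p under 0.05, 2 genes were higher in females (Msr1 and Ccr9) and 0 lower. The shares over all genes tested were 1.66% and 1.23%. Msr1 was 1 of 8 tested genes of its list and Ccr9 1 of 5. DESeq2 called 1, Msr1, against 0.197% of all genes tested called higher. Msr1 passed the low-count filter through the females alone and so had to differ.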
